A study of Glycine max with 6 samples.

Results

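The genes described here are the STOP-type genes of soybean, which encode zinc finger proteins related to STOP1 (SENSITIVE TO PROTON RHIZOTOXICITY 1) of Arabidopsis. A gene was taken as STOP-type when the protein description in the deposited tables contained proton rhizotoxicity, STOP1 or STOP2, which gave 9 of the 48667 genes listed. *GmSTOP2-1* (Glyma.12G081700) and *GmSTOP2-2* (Glyma.11G192400), the genes that the study named, are called STOP2-type here, and the other 7 are called STOP1-type. The split rests on the naming in the study, since 0 of the 9 descriptions name STOP2 and *GmSTOP2-1* itself is described as a STOP1 homolog. The study picked both *GmSTOP2* genes for their change in these same libraries, so their calls are no independent evidence. Relatives without these words in their description were not included.

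Soybean roots were grown in nutrient solution without added aluminium for 30 days, at pH 5.8 for the control and at pH 4.2 for the acid treatment. Each pH-treatment had 3 replicates, each a pool of the roots of 2 plants of the same material that gave 1 RNA library. The sample labels call the material YC03-3, whereas the methods of the study name Huachun 6.

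STOP1 and STOP2 are nuclear zinc finger proteins of the C2H2 class, best known from Arabidopsis. Plants that lack STOP1 form short roots in acid or aluminium-containing medium, because the protein is needed to switch on genes for malate and citrate release, for aluminium transport within the root, for enzymes that consume protons and for cell wall protection. STOP2 is a weakly expressed relative in Arabidopsis that can take over a part of these targets when STOP1 is missing. STOP1 activity is known there to depend largely on the stability of the protein, which an F-box protein marks for degradation, and less on the level of its mRNA.

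Totals ranged from 9137226 to 9358750 expected counts per library. On these totals, without TMM scaling, 3 counts corresponded to between 0.321 and 0.328 CPM (counts scaled to library size). These 3 counts served as a floor, which reflects error from counting alone. Every other CPM value given here was scaled to TMM library sizes, as in edgeR. All 11 genes for Casparian strip membrane proteins, which build a barrier of the root endodermis, reached 1 FPKM (fragments per kilobase of gene length, scaled to library size) in both pH-treatments. They summed to between 38.3 and 122 FPKM in control and between 101 and 125 FPKM in acid-treated libraries, with control replicate 1 lowest. Genes of leaf function were not absent. The summed level of 37 genes for chlorophyll a-b binding proteins and RuBisCO small subunits was 1295 to 2082 FPKM in control and 1493 to 2354 FPKM in acid-treated libraries. The 2 leghemoglobin genes, known from nodules, summed to 109 to 181 and 163 to 188 FPKM, respectively. None of these summed levels separated the pH-treatments, and their part in the results was not tested.

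Both *GmSTOP2* genes were close to silent at pH 5.8 and rose under acid conditions. Among the STOP1-type genes, 2 lay higher in every acid-treated library without passing the test, 3 lay level or slightly lower, and 2 had almost no reads. Low counts were removed before the test, and 7 of the 9 genes passed. Both *GmSTOP2* genes were called, where a call in edgeR's quasi-likelihood test needed a change of 2-fold or more and an adjusted p-value under 0.05. Over all 33490 genes tested, 0.558% were called in either direction and 0.227% as higher at pH 4.2. Without acid replicate 2, 0 of the 9 genes were called, and 1 was called without control replicate 1, without acid replicate 1 or without acid replicate 3.

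*GmSTOP2-1* had 6, 3 and 12 counts in the control libraries, which is 0.651, 0.322 and 1.25 CPM. The acid-treated libraries held 85, 73 and 59 counts, or 9.62, 7.75 and 6.57 CPM. The lowest acid-treated library thus stood well above the highest control. The log2 fold change was 3.40 ± 0.46 (SE, edgeR adjusted p = 0.0236), a 10.6-fold difference with a 95% interval from 5.09-fold to 21.9-fold. Leaving out acid replicate 2 raised the adjusted p to 0.135 (edgeR) although the log2 fold change stayed at 3.44, and it was also above 0.05 without control replicate 1, acid replicate 1 or acid replicate 3 (0.0802, 0.0987 and 0.0583, edgeR).

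*GmSTOP2-2* had 4, 4 and 6 counts in the control libraries, or 0.434, 0.429 and 0.625 CPM. In the acid-treated libraries it had 72, 64 and 66 counts, or 8.15, 6.79 and 7.35 CPM. Replicates of each pH-treatment lay close together and the groups were far apart. The log2 fold change was 3.87 ± 0.35 (SE, edgeR adjusted p = 0.00771), a 14.6-fold difference with a 95% interval from 8.33-fold to 25.5-fold. Without acid replicate 2 the adjusted p was 0.0593 (edgeR). Both *GmSTOP2* genes passed the filter on low counts only with their acid-treated libraries. *GmSTOP2-2* reached 10 counts in 0 control libraries and *GmSTOP2-1* in 1, against 3 acid-treated libraries for each. Without that filter both were still called (adjusted p = 0.00427 for *GmSTOP2-1* and 0.00079 for *GmSTOP2-2*, edgeR).

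**Figure D1:**
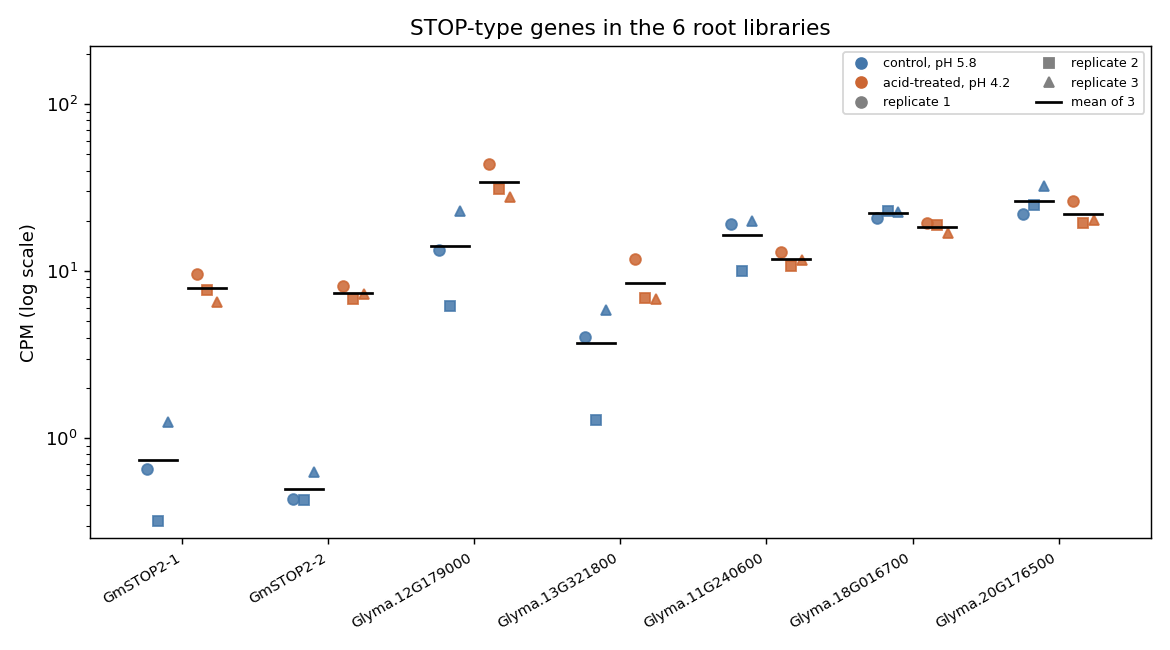
CPM on a log scale of the 7 STOP-type genes that were tested, in control libraries (blue) and acid-treated libraries (orange), with 1 symbol per replicate and a bar at the mean of 3. Both *GmSTOP2* genes moved from at most 1.25 CPM to between 6.57 and 9.62 CPM, whereas the libraries of Glyma.11G240600 and Glyma.20G176500 overlapped.

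The *GmSTOP2* genes were present at like levels within a library. The ratio of the CPM of *GmSTOP2-1* to that of *GmSTOP2-2* was 1.18, 1.14 and 0.894 in the acid-treated libraries. In the control libraries it was 1.5, 0.750 and 2, where it rested on as few as 3 and 4 counts. The deposited counts of both genes were whole numbers in every library, so no read was divided in fractions between them or with other genes. Each also carries transcripts that the authors predicted from these reads, 2 of 3 for *GmSTOP2-1* and 1 of 2 for *GmSTOP2-2*. RSEM weights gene length by transcript, and the length of *GmSTOP2-2* was 815 bases in control replicate 1 and 1670 bases in control replicate 2, at 4 counts each. FPKM values of these genes in control roots carry that uncertainty, which CPM values do not.

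Glyma.12G179000, described as a STOP1 homolog, had 13.3, 6.22 and 22.8 CPM in control roots and 43.6, 31.1 and 27.7 CPM in acid-treated roots. The groups did not overlap, yet control replicate 3 lay closer to the lowest acid-treated library than to control replicate 2. The log2 fold change was 1.27 ± 0.42 (SE, edgeR adjusted p = 0.262), which is 2.41-fold with a 95% interval from 1.25-fold to 4.68-fold. Its change therefore did not pass the test over all genes. Without control replicate 2, its lowest library, the log2 fold change was 0.92, and without control replicate 3, its highest control, it was 1.81.

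Glyma.13G321800 had 4.02, 1.29 and 5.83 CPM in control roots and 11.8, 6.90 and 6.79 CPM in acid-treated roots. As in Glyma.12G179000, control replicate 2 was lowest, control replicate 3 was the highest control and acid replicate 1 was highest. The log2 fold change was 1.19 ± 0.50 (SE, edgeR adjusted p = 0.394), 2.28-fold with a 95% interval from 1.04-fold to 4.996-fold. Within a library, Glyma.12G179000 held between 3.32 and 4.83 times the CPM of Glyma.13G321800 in control and between 3.70 and 4.51 times in acid-treated roots. This ratio overlapped between the pH-treatments, so the genes differed from each other by a like factor at both.

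Glyma.11G240600 had 19.1, 10.1 and 19.98 CPM in control roots and 13.02, 10.7 and 11.7 CPM in acid-treated roots. The groups overlapped, because control replicate 2 lay below all acid-treated libraries. The log2 fold change was -0.47 ± 0.28 (SE, edgeR adjusted p = 0.583), with a 95% interval from -1.12 to 0.18. Without control replicate 2 it was -0.72, with an adjusted p still above the threshold (0.119, edgeR).

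Glyma.18G016700, another gene described as a STOP1 homolog, varied least between control replicates among the 7 tested genes, with a coefficient of variation of 4.91% against 58.9% for Glyma.12G179000. Its control libraries held 20.9, 22.95 and 22.7 CPM and its acid-treated libraries 19.4, 18.9 and 16.8 CPM. Every acid-treated library lay below every control, but the size of the difference was small, with a log2 fold change of -0.27 ± 0.18 (SE, edgeR adjusted p = 0.612). The 95% interval from -0.68 to 0.13 leaves out a 2-fold change in either direction.

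Glyma.20G176500 had 21.9, 24.8 and 32.4 CPM in control roots and 26.3, 19.3 and 20.3 CPM in acid-treated roots. The groups overlapped, with a log2 fold change of -0.26 ± 0.22 (SE, edgeR adjusted p = 0.705) and a 95% interval from -0.77 to 0.24. It was the only one of the 9 genes with a count that was not whole, in 2 libraries. In both, the fraction was made up to a whole number by Glyma.10G215200, a gene described as a C2-H2 zinc finger protein and singled out after its values were seen. No other gene matched it in these libraries while being whole in the other 4, and the pair summed to 704 counts in control replicate 3 and to 471 in acid replicate 2. Glyma.10G215200 had 29.8, 30.5 and 40.9 CPM in control roots and 34.8, 30.7 and 31.9 CPM in acid-treated roots, which overlapped as well.

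The remaining pair, Glyma.05G177700 and Glyma.08G134700, had at most 2 counts in any library and 2 and 3 counts over all 6. Glyma.05G177700 had 1 count in acid replicate 1 and 1 in acid replicate 3, and Glyma.08G134700 had 2 counts in control replicate 2 and 1 in acid replicate 1. Both were under the floor of 3 counts in each library, neither passed the filter, and no difference was detectable at this depth.

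With edgeR, 0 of the 5 STOP1-type genes tested were called, and DESeq2 (which called 2.77% of all genes with an adjusted p) and limma-trend also called 0. At an unadjusted p-value under 0.05, 2 of the 5 passed, against 11.8% of all genes tested. The groups did not overlap in 3 of the 5, of which 2 were above and 1 below the controls, against 16.4% of all genes (7.17% above and 9.24% below). These shares describe 5 genes only. Whether the change of the *GmSTOP2* genes differed from that of a STOP1-type gene was not tested.

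**Figure D2:**
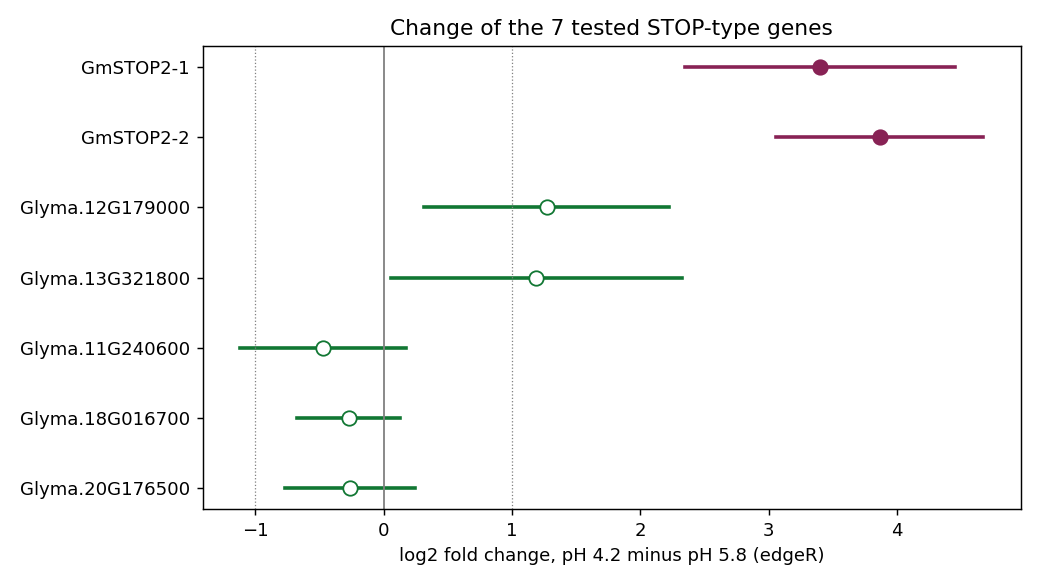
Log2 fold change (pH 4.2 minus pH 5.8) of the 7 tested STOP-type genes with 95% intervals from edgeR. Filled points passed the adjusted threshold and the 2-fold limit, open points did not, and dotted lines mark a 2-fold change. The intervals of the *GmSTOP2* genes start at 2.35 and 3.06, and those of Glyma.11G240600, Glyma.18G016700 and Glyma.20G176500 include 0.

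Compared per length, Glyma.18G016700 had the highest level at pH 5.8, at 18.4 ± 1.13 FPKM (SD, n = 3), and did not overlap with the next gene. Glyma.20G176500 (13.1 ± 2.90 FPKM, SD, n = 3), Glyma.11G240600 (12.8 ± 4.31 FPKM) and Glyma.12G179000 (7.01 ± 4.24 FPKM) followed, and each overlapped with its neighbour in this order. Glyma.13G321800 reached 2.91 ± 1.92 FPKM, and *GmSTOP2-1* and *GmSTOP2-2* lay apart from it at 0.503 ± 0.285 and 0.480 ± 0.180 FPKM. At pH 4.2 the order was different. Glyma.12G179000 stood first at 16.6 ± 3.76 FPKM and overlapped with Glyma.18G016700 at 15.1 ± 1.09 FPKM (SD, n = 3). *GmSTOP2-2* and *GmSTOP2-1* had reached 6.10 ± 1.1 and 5.79 ± 0.896 FPKM, which overlapped with Glyma.13G321800 at 6.29 ± 1.92 FPKM. In control roots 1.15% of the genes tested had a mean FPKM below that of *GmSTOP2-1*, and in acid-treated roots 46.1% did. *GmSTOP2-1* was among the genes tested only through its acid-treated libraries. Its low rank in control roots was therefore set in part by the filter on low counts, and the shift in rank is a description.

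Summed over the 9 genes, the STOP-type level was 53.2, 43.9 and 68.8 FPKM in control libraries and 81.5, 65.0 and 62.8 FPKM in acid-treated libraries, which overlapped. The 7 STOP1-type genes alone summed to 54.3 ± 12.2 FPKM in control and 57.9 ± 8.37 FPKM in acid-treated roots (SD, n = 3), a difference smaller than the spread between replicates. The STOP2-type genes summed to 1.15, 0.490 and 1.31 FPKM in control and to 14.1, 10.4 and 11.2 FPKM in acid-treated libraries. Their share of the whole was 2.16%, 1.12% and 1.90% in control libraries and 17.3%, 16.01% and 17.8% in acid-treated libraries. On the log2 scale, the ratio of the summed STOP2-type to the summed STOP1-type level was -5.50, -6.47 and -5.69 at pH 5.8 and -2.26, -2.39 and -2.21 at pH 4.2. The means differed by 3.60, with groups that did not overlap, and no test was made of this sum because its members were chosen with the results known. Within the STOP1-type genes, the FPKM of Glyma.12G179000 was 0.378, 0.161 and 0.602 times that of Glyma.18G016700 in control and 1.34, 0.973 and 0.9754 times in acid-treated libraries.

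**Figure D3:**
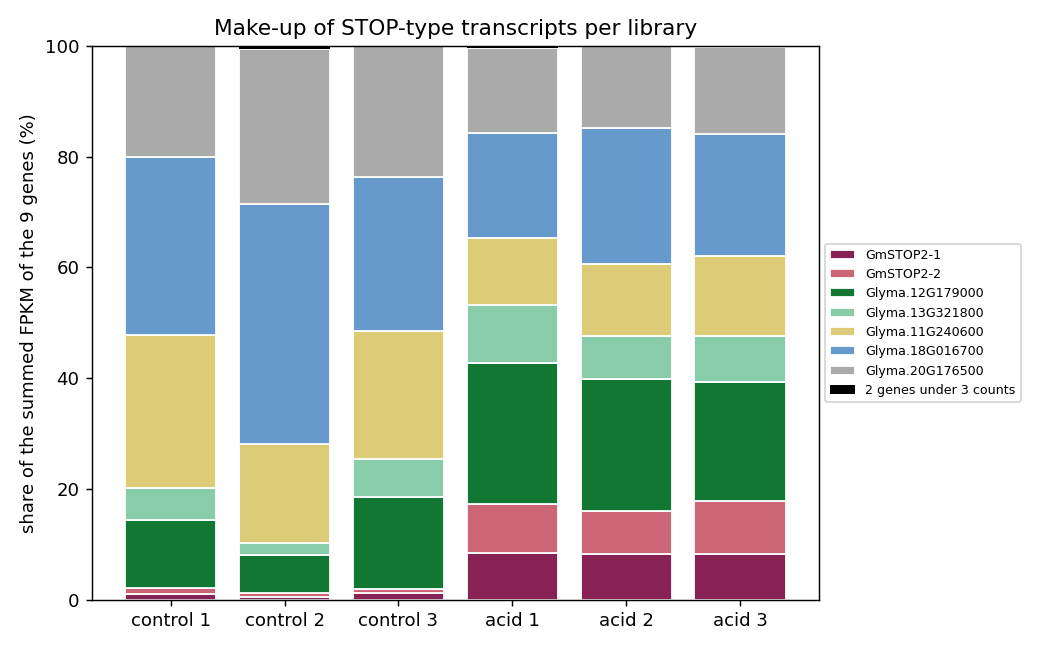
Share of the summed FPKM of the 9 STOP-type genes that each gene held, as stacked bars for the 6 libraries. The *GmSTOP2* genes at the bottom took between 1.12% and 2.16% in control and between 16.01% and 17.8% in acid-treated libraries, and the black segment is the pair of genes with at most 2 counts.

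Genes of families that include known Arabidopsis targets of STOP1 were collected by words in their descriptions, in lists chosen with earlier results of these data known. Not every member of such a family is a known target, and whether these soybean genes are targets was not tested. The lists, called target lists here, held 85 genes, of which 52 were tested. Of these, 7 were called higher and 1 lower at pH 4.2 with edgeR, against 0.227% and 0.331% of all genes tested, and their median log2 fold change was 0.21 against -0.0027 over all genes. Of the 7 genes called higher, 6 had fewer than 3 control libraries with 10 counts and so passed the filter on low counts only with their acid-treated libraries, 4 of them with no control library at that count. A gene of this kind could be tested only where it was high under acid conditions, so the tally is a description. In total 8 were called, and this number was 1 without acid replicate 2, 3 without acid replicate 1, 4 without control replicate 1, 3 without control replicate 3, 6 without acid replicate 3 and 9 without control replicate 2.

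Citrate efflux transporters of the MATE family carry citrate out of root cells, where it can chelate aluminium, or load it into the xylem. Of 7 such genes, 6 were tested and 3 were called, all higher, against 0.227% of all genes tested. Each of the 3 passed the filter only with its acid-treated libraries. At an unadjusted p-value under 0.05 (edgeR), 1 of the 6 was lower, against 7.61% of all genes tested, and the lowest log2 fold change was -1.36. Among the 3, Glyma.13G203000 and Glyma.12G237400 are described as FRD3 and as DETOXIFICATION 43-like. Glyma.13G203000 had 0.651, 0.215 and 0.937 CPM in control and 89.3, 92.5 and 80.9 CPM in acid-treated libraries, a log2 difference of 7.15 ± 0.38 (SE, edgeR adjusted p = 0.00106). Its call held whichever of the 6 libraries was left out, and without the filter (edgeR adjusted p = 3.19e-06). Glyma.12G237400 had 0.109, 0.00 and 0.729 CPM in control and 11.9, 13.2 and 10.5 CPM in acid-treated libraries (5.32 ± 0.67 on the log2 scale, SE, edgeR adjusted p = 0.0200, or 0.00422 without the filter). Glyma.02G181800, described as DETOXIFICATION 42-like, had 0.217, 2.79 and 5.52 CPM in control and 47.1, 41.1 and 54.0 CPM in acid-treated libraries. Its adjusted p of 0.0483 (edgeR) lay close to the threshold, and 3 of 13 alternatives called it, namely DESeq2, limma-trend on log2(FPKM + 1) and the fit without control replicate 1. Without the filter its adjusted p was 0.139 (edgeR). Glyma.12G237400 was called without control replicate 2 and without control replicate 3 but in none of the other 4 such fits, with log2 fold changes from 4.77 to 7.46 over the 6. None of the 3 had an overlap between the pH-treatments, where 16.4% of all genes tested had none, but they were picked by their calls.

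The single gene described as ALUMINUM SENSITIVE 3-like, Glyma.10G047100, encodes a part of a transporter that in Arabidopsis redistributes aluminium away from sensitive tissues. It had 0.543, 0.215 and 2.39 CPM in control and 45.2, 48.3 and 43.3 CPM in acid-treated libraries, a log2 fold change of 5.41 ± 0.58 (SE, edgeR adjusted p = 0.00990). It reached 10 counts in 1 control library, and without the filter its adjusted p was 0.00847 (edgeR). Without acid replicate 2 it was not called (adjusted p = 0.0846, edgeR) at a log2 fold change of 5.39, but its call held when any of the other 5 libraries was left out.

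Polygalacturonase inhibitors protect pectin in the cell wall from degrading enzymes. Only 1 of 8 such genes passed the filter, and this gene, Glyma.08G079100, was called. It reached 10 counts in no control library and so passed only with its acid-treated libraries. It had 0.217, 0.751 and 0.416 CPM in control and 37.0, 15.1 and 10.7 CPM in acid-treated libraries, a log2 fold change of 5.46 ± 0.63 (SE, edgeR adjusted p = 0.0154). Acid replicate 1 stood above the other acid-treated libraries, and the call was lost without control replicate 1, control replicate 3 or acid replicate 2, while the log2 fold change stayed between 4.77 and 5.98 over the 6 such fits. Without the filter its adjusted p was 0.00791 (edgeR).

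In the GABA shunt, the step that consumes protons is the decarboxylation of glutamate by glutamate decarboxylase. Among 13 tested genes for glutamate dehydrogenase, glutamate decarboxylase and GABA transaminase, Glyma.16G041200, described as glutamate dehydrogenase 1, was the only one called, at 19.8, 32.7 and 25.6 CPM in control and 99.8, 86.9 and 84.5 CPM in acid-treated libraries. Its change was 1.80 ± 0.23 on the log2 scale (SE, edgeR adjusted p = 0.0223), and with 1 library left out it was called only when this was control replicate 2, at log2 fold changes from 1.63 to 1.999 over the 6 fits. The median log2 fold change of the 13 genes was 0.02. Their largest was 5.61 for Glyma.02G072200, described as glutamate dehydrogenase 1-like and named here after its values were seen. It had 3, 0 and 0 counts in control and 122, 25 and 10 counts in acid-treated libraries, and was not called with edgeR (adjusted p = 0.124) but was with DESeq2 (adjusted p = 0.000374). Malic enzymes release carbon dioxide from malate and take up a proton. Of 14 such genes tested, 0 were called with edgeR. DESeq2 called 2, against 2.77% of all genes with an adjusted p, and the direction of these 2 is not given here. The log2 fold changes of the 14 ran from -1.63 to 2.86 (edgeR). At an unadjusted p-value under 0.05, 4 of the 14 were higher and 1 lower, where over all genes tested 4.21% were higher and 7.61% lower. The most abundant of them, the NADP-dependent malic enzyme gene Glyma.13G354900, had 336, 536 and 447 CPM in control and 859, 734 and 731 CPM in acid-treated libraries (0.82 ± 0.30 on the log2 scale, SE, edgeR adjusted p = 0.315).

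Among 8 genes described as CIPK23, SULTR3.5, NRT1.1 or HAK5, whose relatives act in potassium, sulfate and nitrate transport, 6 were tested and 1 was called, which reached 10 counts in no control library and passed the filter only with its acid-treated libraries. This was Glyma.09G188700, described as a sulfate transporter 3.5, with 0.109, 0.536 and 0.104 CPM in control and 10.2, 6.37 and 5.01 CPM in acid-treated libraries (4.78 ± 0.61 on the log2 scale, SE, edgeR adjusted p = 0.0205, or 0.00271 without the filter). With 1 library left out, its call held only without control replicate 2 and without acid replicate 3, at log2 fold changes from 4.42 to 5.91 over the 6 fits.

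Malate channels of the ALMT family, whose first member is the best studied STOP1 target in Arabidopsis, gave no higher call. Of 29 such genes 11 were tested, 1 was called lower, the largest log2 fold change was 0.27, and 0 were higher at an unadjusted p-value under 0.05. Over all genes tested, 0.227% were called higher, 0.331% were called lower and 4.21% were higher at an unadjusted p-value under 0.05 (edgeR). For 11 genes, a count of 0 higher lay near these shares. The called gene, Glyma.20G216800, described as ALMT10, fell from 23.6, 51.3 and 41.4 CPM in control to 2.38, 1.59 and 5.12 CPM in acid-treated libraries. Its log2 fold change was -3.67 ± 0.46 (SE, edgeR adjusted p = 0.0199), a 12.8-fold lower level, and it was not called without control replicate 3, acid replicate 1 or acid replicate 2, with log2 fold changes from -4.28 to -3.35 over the 6 fits without 1 library.

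**Figure D4:**
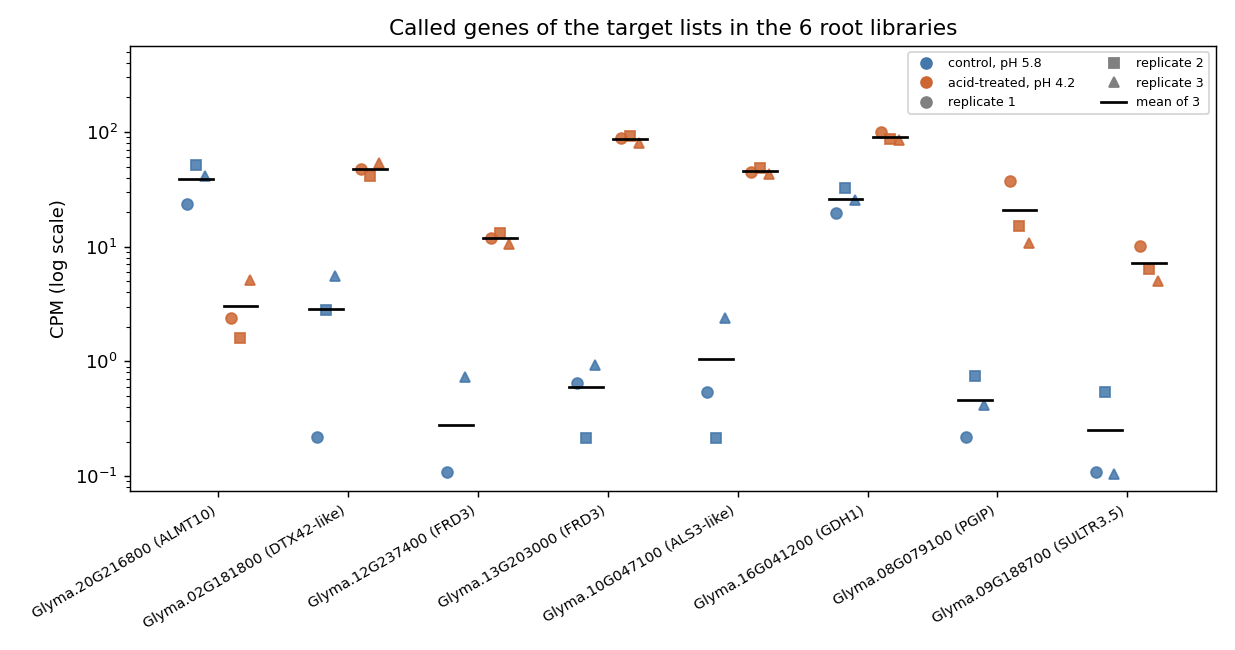
CPM on a log scale of the 8 called genes from the target lists, in control libraries (blue) and acid-treated libraries (orange), with a bar at the mean of 3 and descriptions abbreviated in brackets. The value of 0 of Glyma.12G237400 in control replicate 2 has no symbol. In 7 genes every acid-treated library lay above every control, and in the ALMT10 gene every one lay below. The genes are shown because they were called, so this separation is no further evidence. Among all genes tested, 16.4% had groups that did not overlap.

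Genes whose products act on STOP1 in Arabidopsis were also compared. They include the F-box protein that marks STOP1 for degradation, SUMO-modifying enzymes, a subunit of the mRNA-exporting THO complex, members of a kinase cascade and a Mediator subunit. All 33 such genes were tested and 0 were called with edgeR or DESeq2, with a median log2 fold change of -0.07. At an unadjusted p-value under 0.05, 2 were higher and 2 lower, a share near the 11.8% of all genes tested. The most abundant, the SUMO ligase gene Glyma.12G071300 described as SIZ1-like, had 62.8, 63.8 and 87.5 CPM in control and 72.3, 67.8 and 61.4 CPM in acid-treated libraries, and its log2 fold change of -0.09 turned to 0.091 without control replicate 3. Of 88 other C2H2 zinc finger genes (the ZAT, WIP and IDD groups), 58 were tested, 0 were called with edgeR and 1 with DESeq2, against 2.77% of all genes with DESeq2. At an unadjusted p-value under 0.05, 0 were higher and 4 lower, where over all genes 7.61% were lower, so this count lay near the background. The acid-treated libraries all lay below the controls in 10 of the 58 and all above in 1, against 9.24% and 7.17% of all genes tested. The most abundant of these, the ZAT10-like gene Glyma.04G044900, had 52.9, 16.4 and 82.0 CPM in control and 147, 95.2 and 81.4 CPM in acid-treated libraries, which overlapped. Its lowest library was control replicate 2, as in Glyma.12G179000, Glyma.13G321800, Glyma.11G240600 and *GmSTOP2-1*. The same held for *GmSTOP2-2*, but only at 0.429 against 0.434 CPM in control replicate 1, with 4 counts in each.

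The genes most like the mean log2 CPM of both *GmSTOP2* genes over the 6 libraries were the MATE gene Glyma.13G203000 (Pearson's r = 0.996), the cytosolic glucose-6-phosphate isomerase gene Glyma.06G032500 (0.994), the MATE gene Glyma.12G237400 (0.993), the uncharacterized Glyma.20G118100 (0.992) and the ALUMINUM SENSITIVE 3-like gene Glyma.10G047100 (0.992). The 6 points share 2 pH-treatments, so a large difference between the treatments alone gives a high coefficient, and 128 genes had one above 0.95. Glyma.06G032500, an enzyme of glycolysis, had 13.4, 11.8 and 14.9 CPM in control and 53.8, 43.3 and 52.1 CPM in acid-treated libraries (1.90 ± 0.19 on the log2 scale, SE, edgeR adjusted p = 0.00917). The summed STOP1-type level was most like that of 5 other genes, with coefficients from 0.988 to 0.996. These were the uncharacterized Glyma.03G201100, a TATA-box-binding protein gene (Glyma.19G111200), a nitric oxide synthase-interacting protein gene (Glyma.13G247800), an aldolase gene (Glyma.13G250900) and a cryptochrome gene (Glyma.06G103200). None of these 5 was called, with log2 fold changes from 0.14 to 0.72 and overlapping groups in each.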

How the data were processed

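Per the labels and the methods of the study, root RNA was sequenced on a BGISEQ-500 instrument. The authors aligned filtered reads to the build Williams82.a2.v1 (HISAT), assembled transcripts (StringTie), added these to the reference, and quantified genes against it (Bowtie2, RSEM) (versions not given in the sources used here). The deposited files hold expected counts without normalization, and the deposited FPKM values were calculated by the authors from those counts, gene length and library total. The authors listed gene length in bases for each library as another column, whose values depend on the transcripts present. Genes that a library does not list were set to 0.

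Expected counts were rounded and tested with edgeR 4.0.16 (R 4.3.3; filterByExpr, TMM, robust quasi-likelihood fit, Benjamini-Hochberg adjustment over all genes tested). Standard errors are the log2 fold change over the square root of F, and 95% intervals use its degrees of freedom. An exact permutation test of 3 libraries against 3 cannot go below 0.1. P-values measure the spread between these pools of 2 plants. Alternatives were DESeq2 1.42.0 (the tool of the study), RLE size factors, no filter, a mean count of at least 50, limma-trend (version 3.58.1) with pseudocounts of 0.1 and 1 added to FPKM before taking log2, the replicate number as a block, and each library left out in turn. On the log2(FPKM + 1) scale, changes of low genes are understated, as for *GmSTOP2-1* (2.18 against 3.40 with edgeR). With the pseudocount of 0.1 this did not hold throughout. *GmSTOP2-2* was lower (3.46 against 3.87), *GmSTOP2-1* was nearly unchanged (3.40) and Glyma.10G047100 was higher (5.80 against 5.41). The tests were first tried on simulated counts.

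The genes and lists were chosen with earlier results of these data known. Named are all STOP-type genes, every called gene of a list (or its most abundant gene where none was called), and the 5 genes most like each type by Pearson's r of log2 CPM (prior count 2). Descriptions come from the deposited tables. All 9 STOP-type genes matched a RefSeq protein accession of the assembly Glycine_max_v4.0, a different build, so no coordinates are given. Python 3.11.15, pandas 2.3.3 and matplotlib 3.10.9 were used for tables and plots.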

Additional observations from a re-analysis of the deposited data

How the results depend on the processing

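The log2 fold changes of the 7 tested STOP-type genes kept their sign under every alternative that was run. Both *GmSTOP2* genes stayed called with RLE size factors, DESeq2, no filter and both limma-trend fits, and a mean count of at least 50 removed them, which left 0 of the 9 genes called. The replicate numbers are not stated to pair the libraries. Libraries of equal number, each taken relative to its group mean, correlated at -0.13, -0.05 and -0.37. These values show no shared shift in expression, but cannot show whether replicates were grown or handled in pairs. With the replicate block, 1 STOP-type gene was called, as *GmSTOP2-1* moved above the threshold (log2 fold change 3.47, adjusted p = 0.0780, edgeR), together with 1 citrate MATE gene and 61 of all genes, and Glyma.02G072200 was called in place of Glyma.16G041200 among the GABA shunt genes. Leaving out 1 library gave log2 fold changes from 3.25 to 3.53 for *GmSTOP2-1* in the 4 fits that did not call it, within a range of 3.05 to 4.01 over all 6, and 3.78 to 4.07 for *GmSTOP2-2*, at 3.95 in the fit that did not. The number of STOP-type genes called lay between 0 and 2, and that of all genes between 7 (without acid replicate 2) and 1122 (without control replicate 2). For the target lists these ranges were 0 to 2 for malate channels, 1 to 2 for citrate MATE, 0 to 1 for the aluminium transporter, the GABA shunt, malic enzymes and polygalacturonase inhibitors, and 0 to 2 for ion transport, and for other C2H2 genes 0 to 1. The 8 called target genes ranged from 1 to 9, and the log2 fold change of the SIZ1-like gene Glyma.12G071300 from -0.17 to 0.091, the latter without control replicate 3. DESeq2 called 1060 genes in all (2.77% of the genes with an adjusted p), with 16 target genes in all, among them 2 malate channel, 3 GABA shunt, 2 malic enzyme, 3 ion transport and 1 other C2H2 gene. Without a filter 323 genes and 1 malic enzyme gene were called, a mean count of at least 50 left 0 ion transport genes, and limma-trend on log2(FPKM + 1) called 2. The 3 citrate MATE calls were 2 with RLE size factors, no filter, a mean count of at least 50 or limma-trend on log2(FPKM + 0.1). The difference in the log2 ratio of STOP2-type to STOP1-type level was 3.53 with summed CPM, 3.36 as a mean over genes and 3.31 to 3.79 without 1 library. The cause of these differences was not tested, apart from genes that a filter removed by construction. Control libraries held between 3 and 12 counts of a *GmSTOP2* gene, which limits the precision of both fold changes.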
